A study of Mus musculus with 6 samples.

Results

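Collagen genes were compared between 2 stable lines of OP9, which are stromal cells of mouse bone marrow, on 6 Affymetrix exon arrays. The members are the 40 genes to which the platform annotation gives a single symbol of the form Col, a number, a, a number, out of 22103 genes named there. All 40 had enough probe sets to be tested, among 16871 tested genes. By structural class they comprise 11 fibrillar, 9 network, 9 FACIT (fibril-associated collagens with interrupted helices), 3 beaded filament and 4 transmembrane collagens, and 4 others (Col7a1, Col15a1, Col18a1 and Col28a1). A further 4 collagen genes, Col6a4, Col6a5, Col6a6 and Col26a1, carry older symbols in the annotation and fall outside the rule. None of these 4 passed the threshold, and their log2 differences lay between -0.03 and 0.01.

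Both lines carry a stably integrated lentiviral hairpin of the pLKO.1-Puro type. The control shRNA line (3 arrays) expresses a scrambled hairpin and the Smo shRNA line (3 arrays) a hairpin against Smoothened, Smo, the transmembrane protein through which Hedgehog ligands signal. Both were kept sub-confluent with no further treatment. Each line was sampled 3 times, and the labels name no separate transductions or clones. The p-values thus reflect variation among samples of the same line, and effects of the hairpin and of the line itself cannot be told apart.

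Collagens are secreted or membrane proteins whose chains wind around each other in long helices of glycine-rich repeats. Fibrillar collagens build the tensile fibres of connective tissue, network collagens form sheets such as those of basement membranes, FACITs decorate fibril surfaces, and beaded filaments of collagen VI link cells to the surrounding matrix. In bone marrow, stromal cells are a main source of this matrix. Several collagens are assembled from products of different genes, so the chains of 1 molecule can be set side by side.

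The arrays were closely similar within each line, with correlations across genes of 0.9961 to 0.9979 within a line and 0.9788 to 0.9810 between the lines, where genes are not independent replicates. Smo fell from 12.25 ± 0.03 (SD, n = 3) in control cells to 11.37 ± 0.06 (SD, n = 3) in the knockdown line (difference -0.88, SE 0.04, limma adjusted p = 1.13e-09). Of 10 stromal markers 6 were lower and 0 higher, and their mean log2 value was 11.15 to 11.18 on control arrays and 11.01 to 11.05 on Smo shRNA arrays. No endothelial, epithelial or B cell marker among 18 tested passed the threshold, where 38.6% of all tested genes passed in either direction. Smooth muscle and pericyte markers were lower on average (10.45 to 10.54 in control and 9.71 to 9.86 in Smo shRNA cells). Of these 7, 5 were lower (71.4%, against 17.4% of all genes) and 1 higher (14.3%, against 21.3%). Adipocyte markers were lower as well (10.36 to 10.48 and 9.68 to 9.72), with 4 of 6 tested lower (66.7%) and 1 higher (16.7%). The macrophage list also separated (8.34 to 8.44 and 8.03 to 8.11), with Lyz2 lower (-2.49) and Cd68 higher (0.47), 14.3% in each direction. The other 5, Csf1r and Adgre1 among them, did not pass the threshold. The part of these shifts in the collagen differences was not tested. In RNA from whole cultures, fewer cells of a type and less RNA per cell cannot be told apart.

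Of the 40 collagen genes, 11 fell and 3 rose in Smo shRNA cells, and 26 did not pass (limma, Benjamini-Hochberg adjusted p below 0.05 over all genes). Among all tested genes 17.4% fell and 21.3% rose, so that 38.6% passed in either direction, against 27.5% and 7.5% of the collagens. The fallen genes lay in the fibrillar class (7 of 11), the network class (2 of 9) and the beaded class (2 of 3). The 3 that rose were Col4a1, Col4a2 and Col6a3. No member of the FACIT, transmembrane or other groups passed. The 14 collagens that passed had control means from 9.35 (Col4a2) to 12.84 (Col1a1). The 26 that did not pass had 7.65 (Col4a6) to 9.35 (Col18a1), apart from Col12a1 at 12.87. Calls thus went with level as well as with class, and the part of level was not tested. The median log2 difference was -0.22 for fibrillar, -0.27 for beaded, -0.02 for network, -0.03 for FACIT, 0.02 for transmembrane and 0.07 for the other collagens, and 0.01 over all tested genes. The 6 arrays separated without overlap between the lines in 17 of the 40 genes (42.5%), against 47.8% of all tested genes.

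**Figure D1:**
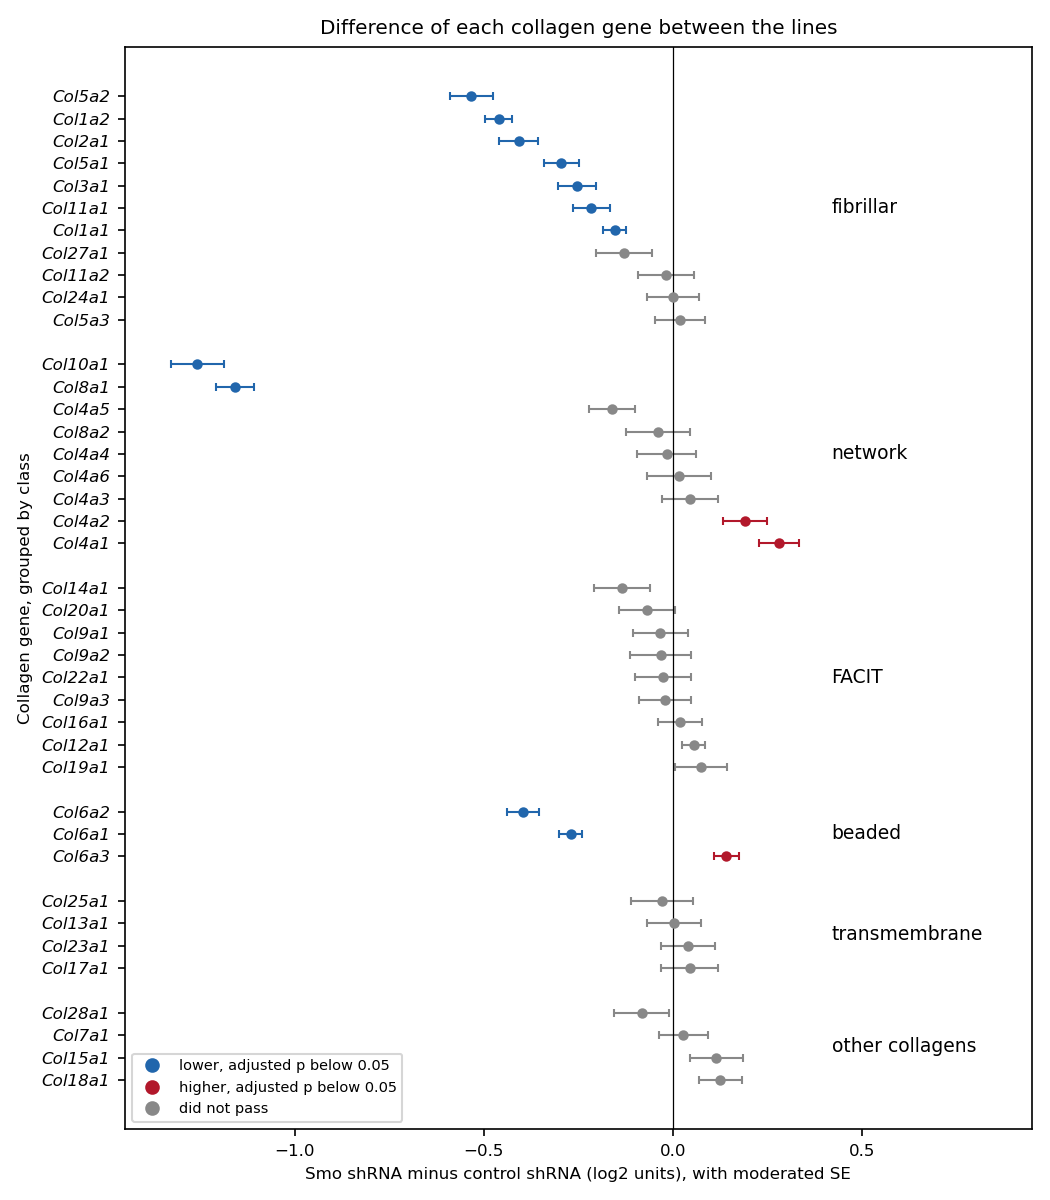
Log2 difference of each of the 40 collagen genes, Smo shRNA minus control shRNA (horizontal axis), grouped by class, with the moderated standard error as bars; colours give the limma call. Col10a1 and Col8a1 lie beyond -1, 7 fibrillar genes lie between -0.53 and -0.15, and all FACIT and transmembrane genes lie within 0.14 of 0.

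The largest changes were in the short-chain network collagens. Col8a1 encodes a chain of collagen VIII, which forms lattices in the matrix beneath endothelium and in vessel walls, and Col10a1 encodes collagen X, the collagen of hypertrophic cartilage. These were the only 2 members that passed with a log2 difference of 0.58 or more in size. Among all tested genes 3.37% fell by as much and 2.79% rose by as much. The 250 bases before the annotated start of each gene are shown because these are the collagens that changed most. The RefSeq windows are on GRCm38.p6, at chr16:57754738-57754987 on the minus strand for Col8a1 and chr10:34389731-34389980 on the plus strand for Col10a1, read 5′ to 3′ towards the gene. Capitals mark matches, on either strand, to TATAAA (the TATA box), CCAAT (the CCAAT box), GGGCGG (the GC box), TGTGGT (a Runx core) or GACCACCCA (the Gli consensus).
Col8a1: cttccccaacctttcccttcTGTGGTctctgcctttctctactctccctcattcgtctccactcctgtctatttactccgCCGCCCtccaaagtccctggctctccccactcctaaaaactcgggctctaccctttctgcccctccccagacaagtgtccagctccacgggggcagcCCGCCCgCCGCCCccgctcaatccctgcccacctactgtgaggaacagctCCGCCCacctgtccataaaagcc
Col10a1: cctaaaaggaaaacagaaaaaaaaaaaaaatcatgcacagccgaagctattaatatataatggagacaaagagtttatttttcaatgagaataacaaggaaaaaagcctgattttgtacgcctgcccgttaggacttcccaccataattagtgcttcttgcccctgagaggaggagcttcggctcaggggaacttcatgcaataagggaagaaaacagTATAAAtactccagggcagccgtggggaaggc
The windows differ in composition, with 60.8% G and C for Col8a1 and 41.6% for Col10a1. The Col8a1 window holds 4 GC box matches and a Runx core match, and the Col10a1 window holds a TATA box match that starts 32 bases before the annotated start.

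Col8a1 read 10.93, 10.90 and 11.02 on the control arrays and 9.76, 9.79 and 9.82 on the Smo shRNA arrays. The lines did not overlap, and the gap between them was 1.08. Col8a1 was 2.23-fold lower (log2 difference -1.16, SE 0.05, limma adjusted p = 9.94e-10). All 12 of its probe sets fell and passed on their own, by amounts from -1.42 to -0.33, where 12.4% of all kept probe sets fell. Col10a1 read 10.68, 10.57 and 10.72 in control and 9.35, 9.29 and 9.56 in Smo shRNA cells, again without overlap. Col10a1 was 2.39-fold lower (log2 difference -1.26, SE 0.07, limma adjusted p = 9.58e-09). It rests on 5 probe sets, the fewest of any member. Of these, 4 had log2 differences from -1.47 to -1.25 and 1 had -0.32. Nt5dc1, whose annotated span encloses the Col10a1 start, rose by 0.45 (SE 0.07, limma adjusted p = 0.000143). Col8a2, the partner chain of Col8a1 in collagen VIII, did not pass, with a log2 difference of -0.04 and a 95% interval of -0.22 to 0.15. Col8a2 was dim, with means of 7.65 in control and 7.61 in Smo shRNA cells, and 15 of its 21 probe sets were kept.

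Of the 6 collagen IV chains, Col4a1 and Col4a2 rose and the other 4 did not pass. Col4a1 and Col4a2 encode the chains of the widespread form of collagen IV, and their genes lie head to head on chromosome 8, with annotated starts 21 bases apart in RefSeq (GRCm38.p6). Col4a1 read 10.14, 9.99 and 10.03 in control and 10.31, 10.36 and 10.33 in Smo shRNA cells. Col4a2 read 9.37, 9.29 and 9.38 in control and 9.53, 9.60 and 9.48 in Smo shRNA cells. All Smo shRNA arrays were above all control arrays for both chains. Col4a1 rose by 0.28 (SE 0.05, limma adjusted p = 0.000727) and Col4a2 by 0.19 (SE 0.06, limma adjusted p = 0.0171). The Col4a2 call was lost without control replicate 1 (0.17, adjusted p = 0.0654), without Smo shRNA replicate 1 (0.16, adjusted p = 0.0764) and without Smo shRNA replicate 2 (0.12, adjusted p = 0.139). Of 67 kept Col4a1 probe sets 31 rose and 0 fell, and of 55 for Col4a2 15 rose and 0 fell, where 17.5% of all kept probe sets rose and 12.4% fell.

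Of the chains of the tissue-restricted collagen IV forms, Col4a3, Col4a4 and Col4a6 did not pass, with log2 differences of 0.05, -0.02 and 0.02. Col4a5 missed the threshold narrowly. It read 8.75, 8.73 and 8.72 in control and 8.54, 8.60 and 8.56 in Smo shRNA cells, so that its difference was -0.16 (SE 0.06, limma adjusted p = 0.0509). The lines did not overlap for Col4a5, and it passed as lower under 7 of 15 alternative settings, its adjusted p running from 0.0199 to 0.211 over all settings. Of its 56 probe sets 10 fell (17.9%, against 12.4% of all kept probe sets) and 0 rose.

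**Figure D2:**
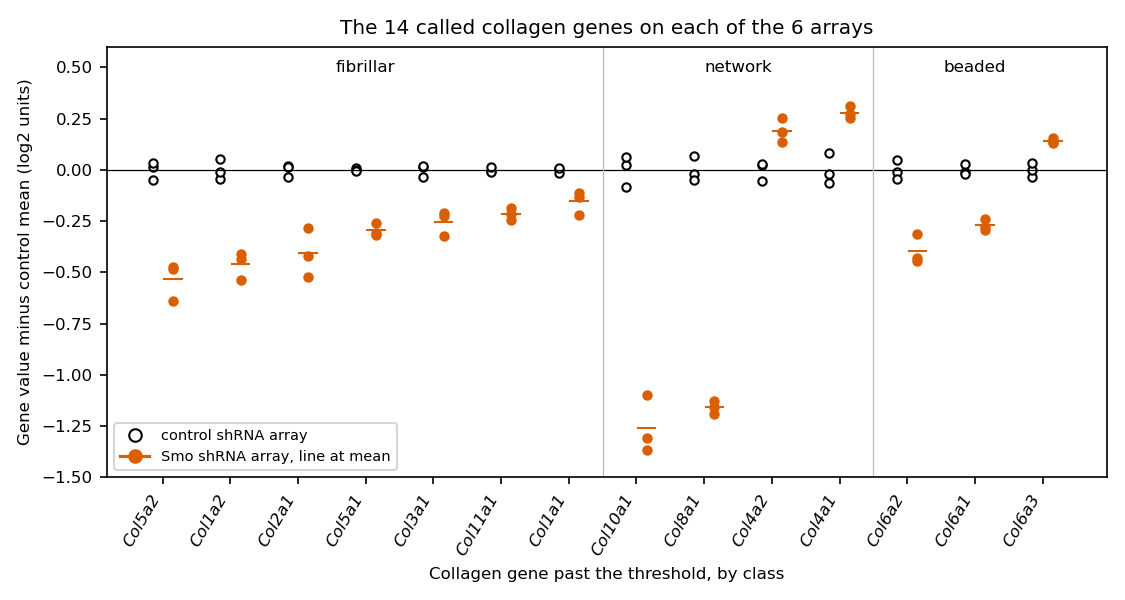
Gene values on each array minus the control mean (log2 units) for the 14 collagen genes that passed, ordered by class. Open circles are the 3 control arrays, filled circles the 3 Smo shRNA arrays and bars the Smo shRNA means; in every gene shown the 2 sets of arrays do not overlap.

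Of the 11 fibrillar collagens, 7 fell, by 1.11-fold to 1.45-fold, and 4 did not pass. The 7 that fell were Col1a1, Col1a2, Col2a1, Col3a1, Col5a1, Col5a2 and Col11a1, which include the chains of the common types I, III and V. The same 7 genes were called in each of the 15 alternative settings. Col1a2 and Col3a1, chains of collagens I and III that occur together in soft connective tissue, have RefSeq start windows of 250 bases at chr6:4505368-4505617 and chr1:45311288-45311537, both on the plus strand of GRCm38.p6. They are shown because these genes fell together, with the same motifs in capitals.
Col1a2: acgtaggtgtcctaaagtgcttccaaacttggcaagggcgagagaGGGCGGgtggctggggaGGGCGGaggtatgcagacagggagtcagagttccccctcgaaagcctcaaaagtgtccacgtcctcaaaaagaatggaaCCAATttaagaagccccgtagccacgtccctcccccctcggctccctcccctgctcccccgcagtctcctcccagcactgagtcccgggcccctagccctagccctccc
Col3a1: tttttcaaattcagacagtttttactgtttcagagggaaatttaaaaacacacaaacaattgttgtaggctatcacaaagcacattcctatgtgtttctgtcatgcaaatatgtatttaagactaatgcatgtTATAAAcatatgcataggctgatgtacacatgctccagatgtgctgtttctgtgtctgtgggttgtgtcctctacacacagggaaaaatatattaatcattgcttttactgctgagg
The Col1a2 window is rich in G and C (62.0%) with 2 GC box matches and a CCAAT box match, and the Col3a1 window is not (35.2%), with a TATA box match that starts 117 bases before the annotated start.

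Type I collagen is built from the products of Col1a1 and Col1a2. Col1a2 read 12.78, 12.81 and 12.87 in control and 12.28, 12.38 and 12.41 in Smo shRNA cells. Col1a1 read 12.85, 12.83 and 12.85 in control and 12.62, 12.73 and 12.71 in Smo shRNA cells. Neither gene overlapped between the lines, and the Col1a1 gap was the narrower (0.10, against 0.37 for Col1a2). Col1a2 was 1.38-fold lower (log2 difference -0.46, SE 0.04, limma adjusted p = 2.83e-07) and Col1a1 1.11-fold lower (-0.15, SE 0.03, limma adjusted p = 0.000977). The within-array difference of Col1a2 minus Col1a1 was -0.02 ± 0.05 (SD, n = 3) in control and -0.33 ± 0.02 (SD, n = 3) in Smo shRNA cells. Its change of -0.31 had p = 0.1 in an exact two-sided permutation test, which is the smallest p that 3 against 3 arrays allow.

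The size of the type I differences varied with the brightness of the probe sets. For Col1a1, 13 probe sets with a mean log2 value from 10 to 12 had a median difference of -0.29, while the 15 from 13 to 14 had 0.02 and the 6 above 14 had -0.02. For Col1a2 the medians were -0.72 (13 probe sets from 10 to 12), -0.53 (21 from 12 to 13), -0.22 (19 from 13 to 14) and -0.09 (5 above 14). The highest value on any array was 15.14, and Col1a1, Col1a2, Col2a1 and Col12a1 were the members with probe sets at a mean of 14 or more. At matched brightness Col1a2 still differed more than Col1a1, with 21 probe sets of each from 12 to 13 and medians of -0.53 and -0.27. A cause of the trend with brightness was not tested, and the gene values for type I collagen average over it. Col2a1 showed the same trend, with a median of -0.48 over 31 probe sets from 10 to 12 and -0.09 over 4 above 14.

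**Figure D3:**
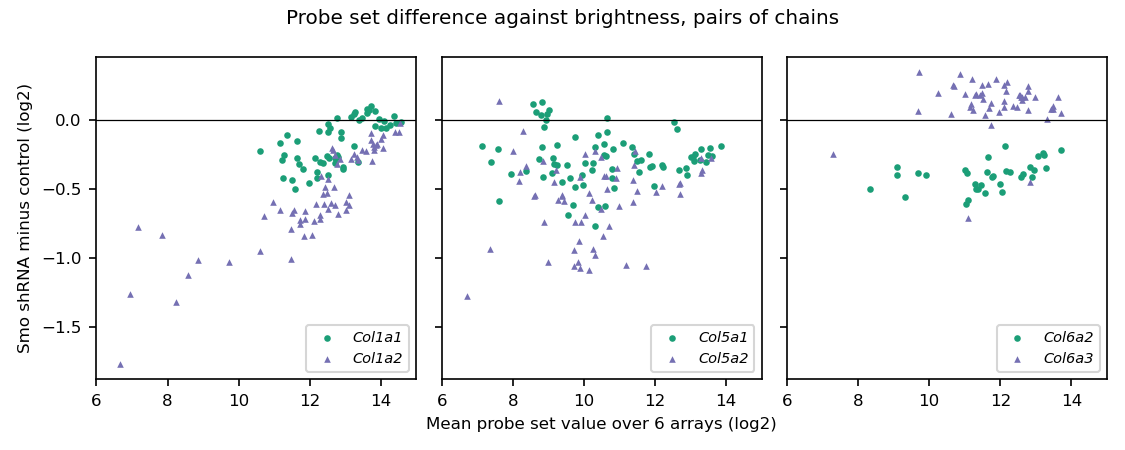
Difference of each kept probe set (vertical axis, log2 units) against its mean log2 value over the 6 arrays, for chains of collagen I (left), V (middle) and VI (right). Col1a1 and Col1a2 approach 0 towards the bright end, Col5a1 and Col5a2 do so less, and Col6a3 lies mostly above 0 at brightness levels where Col6a2 lies below.

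Collagen V nucleates and limits collagen I fibrils. Col5a2 read 10.48, 10.42 and 10.50 in control and 9.83, 9.99 and 9.98 in Smo shRNA cells. It had the largest fibrillar change, 1.45-fold lower (log2 difference -0.53, SE 0.06, limma adjusted p = 4.87e-06). Of 61 Col5a2 probe sets 52 fell (85.2%, against 12.4% of all kept probe sets). Col5a1, the partner chain of Col5a2, read 10.63, 10.62 and 10.62 in control and 10.31, 10.37 and 10.32 in Smo shRNA cells. Col5a1 was 1.23-fold lower (-0.29, SE 0.05, limma adjusted p = 0.000122). No Smo shRNA array reached the control arrays for Col5a1. Col5a3, the minor chain of collagen V, did not pass (0.02, 95% interval -0.13 to 0.16). Col5a2 minus Col5a1 changed by -0.24 between the lines (exact p = 0.1, the smallest possible).

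Col2a1, the main collagen of cartilage, was 1.33-fold lower (log2 difference -0.41, SE 0.05, limma adjusted p = 2.08e-05), and all 71 of its probe sets were below 0, 60 of them past the threshold. It read 11.83, 11.88 and 11.88 in control and 11.34, 11.44 and 11.58 in Smo shRNA cells, the widest spread of the called fibrillar genes. Col3a1, the homotrimeric collagen of elastic tissues, was 1.19-fold lower (-0.25, limma adjusted p = 0.00108), with 32 of 58 probe sets lower. Col11a1, which has a role like that of collagen V in cartilage fibrils, was 1.16-fold lower (-0.22, limma adjusted p = 0.00263), with 24 of 69 probe sets lower. In none of these 3 genes did a probe set rise past the threshold. Col11a2, Col24a1 and Col27a1 did not pass, with log2 differences of -0.02, 0.00 and -0.13. In Col27a1, 10 of 78 probe sets fell (12.8%, near the 12.4% of all kept probe sets), by a median of 0.69 on the log2 scale, while the 68 that did not pass had a median of -0.09. Over the whole class 315 of 709 probe sets (44.4%) fell and 3 (0.423%) rose, where 12.4% and 17.5% of all kept probe sets did.

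**Figure D4:**
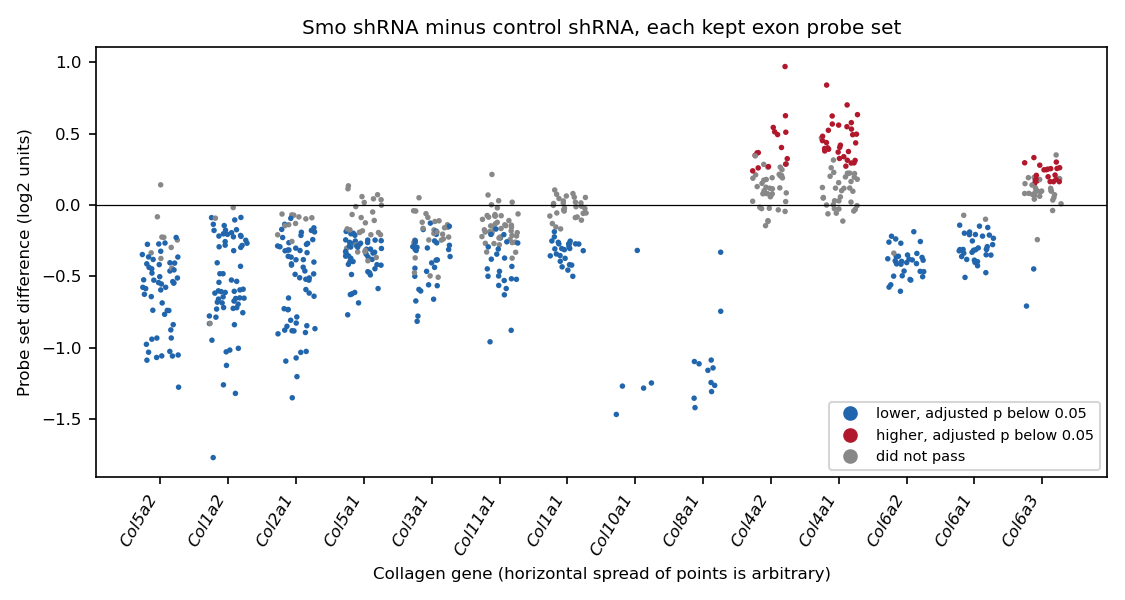
Log2 difference of every kept exon probe set of the 14 collagen genes that passed, coloured by its own limma call. All probe sets of Col1a2, Col2a1, Col8a1, Col10a1, Col6a1 and Col6a2 lie below 0, whereas Col6a3 has 47 above 0 and 4 below.

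The beaded filament collagen VI is a heterotrimer of chains encoded by Col6a1, Col6a2 and Col6a3, and its chains moved in opposite directions. Col6a1 and Col6a2 are neighbours on chromosome 10, while Col6a3 lies on chromosome 1. The RefSeq start windows of the neighbours are at chr10:76726045-76726294 and chr10:76623631-76623880, on the minus strand of GRCm38.p6, and are shown because this pair fell together, with the same motifs in capitals.
Col6a1: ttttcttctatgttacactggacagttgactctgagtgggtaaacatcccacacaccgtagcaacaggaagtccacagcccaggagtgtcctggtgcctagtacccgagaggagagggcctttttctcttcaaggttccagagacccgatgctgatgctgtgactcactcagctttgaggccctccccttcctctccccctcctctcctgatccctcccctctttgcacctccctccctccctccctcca
Col6a2: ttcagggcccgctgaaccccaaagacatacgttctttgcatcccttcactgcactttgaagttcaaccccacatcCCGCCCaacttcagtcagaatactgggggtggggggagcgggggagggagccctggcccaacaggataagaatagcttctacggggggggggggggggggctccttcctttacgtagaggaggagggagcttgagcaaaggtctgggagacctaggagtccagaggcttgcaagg
The Col6a1 window holds no match to any of the 5 motifs, and the Col6a2 window holds a GC box match that starts 175 bases before the annotated start. RefSeq gives 2 start windows for Col6a2, and the outer one is shown.

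Col6a1 read 12.33, 12.32 and 12.37 in control and 12.06, 12.10 and 12.04 in Smo shRNA cells, 1.21-fold lower (log2 difference -0.27, SE 0.03, limma adjusted p = 8.38e-06). Col6a2 read 11.91, 11.87 and 11.97 in control and 11.49, 11.60 and 11.47 in Smo shRNA cells, 1.32-fold lower (-0.40, SE 0.04, limma adjusted p = 4.94e-06). The lines stood apart for both, and 33 of 35 and 33 of 34 probe sets fell past the threshold (94.3% and 97.1%, against 12.4% of all). Col6a3 read 11.78, 11.82 and 11.86 in control and 11.95, 11.97 and 11.96 in Smo shRNA cells, 1.10-fold higher (0.14, SE 0.03, limma adjusted p = 0.00353). The Col6a3 call was lost with the arrays centred on their medians (0.10, adjusted p = 0.0516) and without control replicate 1 (0.10, adjusted p = 0.0654), with the direction kept.

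Col6a3 minus Col6a2 went from -0.10 ± 0.04 (SD, n = 3) to 0.44 ± 0.06 (SD, n = 3), a change of 0.54, and Col6a3 minus Col6a1 changed by 0.41. Both had an exact permutation p of 0.1, the smallest possible. All 6 chain pairs compared had this same p, so adjustment over them left it at 0.1. They include the smaller changes of Col4a2 minus Col4a1 (-0.09) and Col6a2 minus Col6a1 (-0.13), so this p does not set the pairs apart. A shift common to all genes of an array cancels in these within-array differences. Of 51 Col6a3 probe sets, 21 rose (41.2%, against 17.5% of all kept probe sets) with a median of 0.21. Another 2 fell (3.92%, against 12.4%), by 0.71 and 0.45 on the log2 scale. Those 2 were not dim, with mean log2 values of 11.10 and 12.84.

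FACIT collagens showed no change that passed. Col12a1, which sits on collagen I fibrils, read 12.82, 12.88 and 12.90 in control and 12.88, 12.96 and 12.94 in Smo shRNA cells, so the lines overlapped. Its log2 difference was 0.06 (SE 0.03, limma adjusted p = 0.179), with a 95% interval of -0.01 to 0.12. Col14a1, a relative of Col12a1, read 7.87, 7.85 and 7.78 in control and 7.76, 7.72 and 7.62 in Smo shRNA cells. The lines did not overlap for Col14a1, but its log2 difference of -0.13 (SE 0.07, limma adjusted p = 0.182) did not pass. In Col14a1, 4 of 28 probe sets fell (14.3%, near the 12.4% of all kept probe sets), by a median of 0.85 on the log2 scale. Those 4 were dim, with mean log2 values of 6.94 to 7.28, where probe sets below 6.56 were left out. Col14a1 passed as lower when probe sets were averaged in place of the median polish (-0.21, adjusted p = 0.0369). The other 7 members (Col9a1, Col9a2, Col9a3, Col16a1, Col19a1, Col20a1 and Col22a1) had differences from -0.07 to 0.07. The 95% intervals of the 9 FACIT genes together ran from -0.29 to 0.23. Apart from Col12a1, the FACIT genes had control means of 7.83 to 9.14, while the fibrillar genes that fell had 10.19 to 12.84.

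Transmembrane collagens also showed no change that passed. Their log2 differences were 0.04 for Col17a1, the hemidesmosome collagen of epithelia, 0.04 for Col23a1, 0.00 for Col13a1 and -0.03 for Col25a1. Col17a1 read 8.26, 8.32 and 8.13 in control and 8.37, 8.28 and 8.20 in Smo shRNA cells, and Col23a1 read 8.65, 8.71 and 8.59 in control and 8.82, 8.66 and 8.59 in Smo shRNA cells. The lines overlapped for all 4, and the 95% intervals ran from -0.21 to 0.21. Only 2 of 136 probe sets of this class passed, 1 in each direction (0.735% each). Of all kept probe sets 12.4% fell and 17.5% rose. These genes kept 76.4% of their probe sets above the brightness filter, against 93.9% for fibrillar and 100% for beaded genes. A p that missed the threshold does not show that these genes were alike in both lines.

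Among the 4 other collagens no gene value passed. The share of their probe sets that rose (18.0%) was near the 17.5% of all kept probe sets. Col18a1, the basement membrane collagen from which endostatin is cleaved, read 9.41, 9.32 and 9.32 in control and 9.50, 9.45 and 9.47 in Smo shRNA cells, without overlap. Its log2 difference of 0.13 (SE 0.06, limma adjusted p = 0.101) did not pass, and 14 of 53 probe sets rose (26.4%, against 17.5% of all kept probe sets) and 2 fell. Col15a1, its relative, read 8.49, 8.51 and 8.40 in control and 8.62, 8.64 and 8.48 in Smo shRNA cells, with overlap, and a difference of 0.12 (SE 0.07, limma adjusted p = 0.233). Of 40 Col15a1 probe sets, 9 rose (22.5%) with a median of 0.60 and 1 fell. The 9 that rose were dim, with mean log2 values of 6.74 to 8.97, and the 1 that fell had 12.12. Col15a1 passed as higher when probe sets were averaged (0.20, adjusted p = 0.021).

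For Col7a1, the anchoring fibril collagen, the gene value did not pass (log2 difference 0.03, SE 0.07, limma adjusted p = 0.804). Of its 118 probe sets 19 rose (16.1%, near the 17.5% of all kept probe sets), by a median of 0.89 and up to 1.21. The 97 that did not pass had a median of 0.00, and 2 fell. Mean log2 values of the 19 that rose ran from 6.56, the level of the filter, to 10.37. The median polish follows the majority of probe sets, and whether the 19 reflect a change of Col7a1 was not tested. Averaging the probe sets gave 0.14 (adjusted p = 0.104). Col28a1 had 4 of 22 probe sets lower (18.2%, against 12.4% of all) and a gene difference of -0.08 that did not pass. In the 4 genes together 42 of 233 probe sets rose (18.0%) and 9 fell (3.86%), where 17.5% and 12.4% of all kept probe sets did.

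Start windows were found in RefSeq for 32 of the 40 genes, in 35 windows. Those not found were Col1a1, Col2a1, Col4a3, Col5a2, Col9a3, Col12a1, Col14a1 and Col22a1. GC box matches were in 19 of the 35 windows (54.3%), against 32.7% of 32851 windows of all genes. CCAAT matches were in 12 (34.3%, against 33.8%), TATAAA in 5 (14.3%, against 12.4%) and TGTGGT in 3 (8.57%, against 14%). GACCACCCA was in 0 of the 35, and in 0.225% of all windows. Of the 8 fallen genes with a window, 5 held a GC box, 2 a CCAAT box, 2 a TATA box and 1 a Runx core match, and among the raised genes both Col4a1 and Col4a2 held a CCAAT box match. No searched motif lies inside another, and these matches describe the letters of the windows only.

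Genes that fold, modify and export procollagen were compared next, from lists chosen by function, whose counts stand against 17.4% lower and 21.3% higher among all tested genes. Of 18 tested genes of folding and modification, 9 fell (50%) and 4 rose (22.2%, near the share of all genes), with a median of -0.15. Plod2, the lysyl hydroxylase that prepares telopeptides for stable cross-links, read 11.68, 11.67 and 11.74 in control and 10.29, 10.30 and 10.32 in Smo shRNA cells. Plod2 was 2.63-fold lower (log2 difference -1.39, SE 0.04, limma adjusted p = 2.77e-11), and its lines stood far apart. The prolyl isomerase Fkbp14 fell by 0.65, the prolyl hydroxylase chain P4ha2 by 0.30 and its partner P4hb by 0.20 on the log2 scale, while the lysyl hydroxylase Plod1 rose by 0.22 (limma adjusted p at most 5.49e-05 for these 4). Plod3, the third lysyl hydroxylase, rose by 0.13 (limma adjusted p = 0.00501), a call lost in 7 of the 15 alternative settings. Only 2 genes of this list rose with the arrays centred on their medians, without control replicate 1 or without control replicate 3.

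Of 10 genes of procollagen export, 3 rose and 3 fell (30.0% each, against 21.3% higher and 17.4% lower among all genes). Mia2, which loads large cargo at exit sites of the endoplasmic reticulum, rose by 0.81 (SE 0.06, limma adjusted p = 1.98e-07), and the vesicle coat gene Sec23a rose by 0.48. Its coat partners Sec24d and Sec31a fell by 0.35 and 0.15. Klhl12, a ubiquitin ligase adaptor for large coated vesicles, rose by 0.41, a call that was lost without control replicate 1, control replicate 2 or Smo shRNA replicate 2 (adjusted p = 0.104, 0.0861 and 0.0794). Mia2 and Sec23a both lie on chromosome 12, and a shift shared by genes of that chromosome was not tested.

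Of 12 tested genes that trim propeptides or cross-link fibrils, 4 fell (33.3%, against 17.4% of all genes) and 2 rose (16.7%, against 21.3%). Adamts14, an aminoprocollagen peptidase, was 1.72-fold higher (log2 difference 0.78, SE 0.07, limma adjusted p = 7.39e-07). The lysyl oxidase relatives split, with Loxl4 and Loxl1 lower (-0.27 and -0.22) and Loxl3 higher (0.20). Pcolce, which enhances removal of the C-propeptide, fell by 0.08, a call lost in 7 of the 15 alternative settings. Without control replicate 1, Smo shRNA replicate 2 or Smo shRNA replicate 3, only 2 genes of this list fell.

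Of 10 collagen receptors, 4 fell (40.0%, against 17.4% of all genes), 1 rose (10%, against 21.3%) and 5 did not pass. Itga1, the collagen IV-binding integrin chain, read 11.17, 11.14 and 11.26 in control and 8.73, 8.65 and 8.83 in Smo shRNA cells. The lines lay 2.31 log2 units apart at their nearest for Itga1 (log2 difference -2.45, SE 0.06, limma adjusted p = 4.39e-12). Itga11, the integrin chain that prefers fibrillar collagen, fell by 0.45, and the discoidin receptors Ddr1 and Ddr2 by 0.36 and 0.35 on the log2 scale. The uptake receptor Mrc2 rose by 0.13, a call lost without control replicate 1 (adjusted p = 0.0675) and without the variance trend (adjusted p = 0.0512). Of 5 tested collagen-degrading enzymes, 4 fell (80.0%, against 17.4% of all genes) and 0 rose, with Mmp13, a collagenase, at -1.21, Mmp14 at -0.51, Mmp2 at -0.20 and Ctsk at -0.21. Mmp9, a gelatinase, did not pass (-0.19, limma adjusted p = 0.056). The Ctsk call was lost in 9 of the 15 alternative settings.

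Among fibril-associated proteins, 4 of 11 tested fell (36.4%, against 17.4% of all genes) and 0 rose (against 21.3%). Prelp, which bridges fibrils and basement membranes, fell by 2.05 (SE 0.04, limma adjusted p = 2.06e-12). The log2 differences of Aspn, Thbs1 and Ogn were -1.93, -0.68 and -0.61. Decorin (Dcn), which regulates fibril width, did not pass (0.21, limma adjusted p = 0.0606), and passed as higher in 4 of the 15 alternative settings. Dcn was dim, with means of 6.91 in control and 7.12 in Smo shRNA cells. Only 9 of its 19 probe sets were kept, where probe sets with a mean below 6.56 were left out. Bgn, Sparc and Fn1, which code for abundant partners of collagen I fibrils, did not pass (-0.05, -0.01 and 0.05), although Bgn passed as lower when probe sets were averaged (-0.18, adjusted p = 0.00603). Their control means were high (14.11, 14.03 and 14.03), as was that of Thbs1, which fell (14.09). The part of level in these differences was not tested.

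Of 13 tested basement membrane partners of collagen IV, 6 rose (46.2%, against 21.3% of all genes) and 3 fell (23.1%, against 17.4%). The laminin chain Lama5 read 9.70, 9.60 and 9.69 in control and 10.92, 10.96 and 10.89 in Smo shRNA cells, 2.39-fold higher (log2 difference 1.26, SE 0.05, limma adjusted p = 4.33e-10). Lamb1 rose by 0.74 while Lamb2, the alternative beta chain, fell by 0.54. Nid1 rose by 0.27 while its relative Nid2 fell by 1.18, and Nid2 read 11.21, 11.05 and 11.19 in control and 9.92, 9.97 and 10.03 in Smo shRNA cells. Pxdn, the peroxidase that cross-links collagen IV, and Lamc1 rose by 0.31 and 0.49. The laminin chain Lama4 fell by 0.51 (limma adjusted p = 7.51e-05). Lamb1 and Pxdn lie on chromosome 12, as do Mia2 and Sec23a of the export list.

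Of 12 transcription factors known to act on collagen genes, 5 fell (41.7%, against 17.4% of all genes) and 1 rose (8.33%, against 21.3%). Runx2, a regulator of Col10a1, fell by 0.42 (SE 0.04, limma adjusted p = 2.70e-06) and Sox9, a regulator of Col2a1, by 0.28 (SE 0.05, limma adjusted p = 0.000205). Creb3l1, an activator of type I collagen genes in bone, fell by 0.30, a call lost when control replicate 1 or 2 or Smo shRNA replicate 1 or 2 was omitted. Nfyb, a CCAAT-binding factor subunit, rose by 0.26 and Ybx1 fell by 0.10 (lost in 5 of the 15 settings), and the Nfyb call was lost whichever of the 6 arrays was omitted. Without control replicate 1, control replicate 2 or Smo shRNA replicate 2, only 2 of these factors fell. Cartilage markers other than Sox9 (Acan, Matn1, Matn3, Comp and Cnmd) did not pass, with log2 differences from -0.01 to 0.04.

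**Figure D5:**
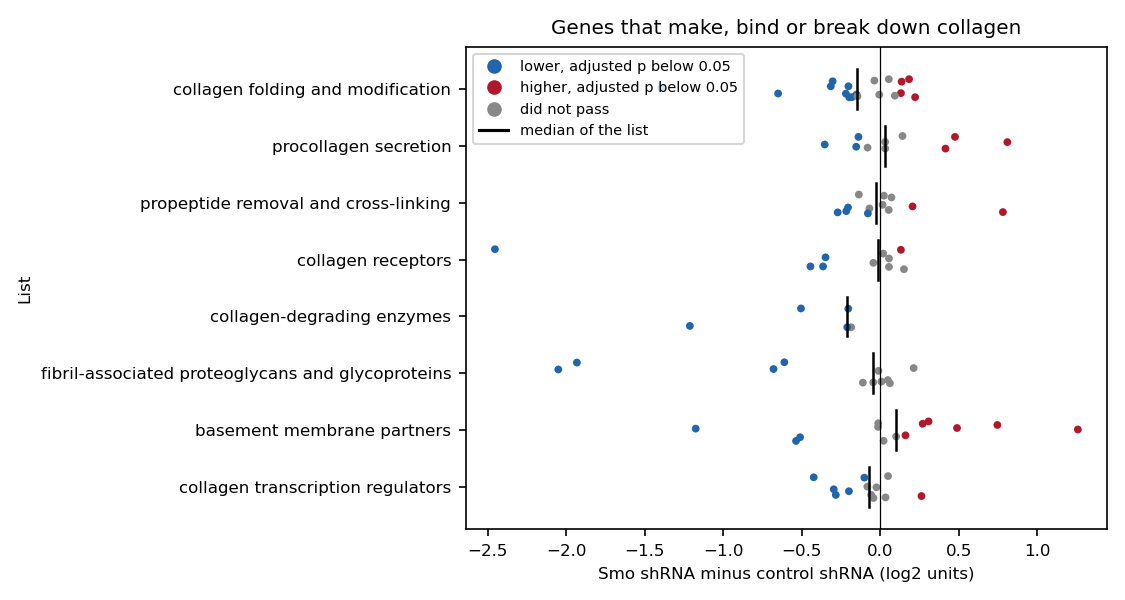
Log2 difference of each tested gene (points, coloured by limma call) in 8 lists of genes that make, bind, accompany or break down collagen, with the median of each list as a black bar. The widest spread is in the receptor list, from -2.45 to 0.15, and the basement membrane list has the highest median, 0.10.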

How the data were processed

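The authors deposited a table of 1256831 exon probe sets as log2 values for 6 arrays. The log2 scale was read from the values; how probe sets were summarised and normalized is not stated in the labels or file. Array medians of 6.56 to 6.59 show values already alike between arrays. Genes were named from the platform annotation, with older symbols updated through RefSeq (GRCm38.p6), and probe sets with several symbols (6684) were left out. Probe sets with a mean at or above the median of all (6.56) were kept (245574), and genes with 3 or more were joined by median polish. The comparison used limma 3.58.1 under R 4.3.3 (lmFit and eBayes with a variance trend, two-sided, Benjamini-Hochberg, threshold 0.05). Differences are Smo shRNA minus control shRNA, SE is the moderated standard error, and intervals are 95% from it. Kept probe sets were tested in the same way. Exact permutation tests used scipy 1.17.1. The calculation was tested on simulated data. The number of arrays limits the precision. Leaving out an array kept the probe sets of the full comparison.

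The members and lists were chosen with earlier results of these data known. All 40 members are accounted for. Values on each array are given for members that passed with a log2 difference of 0.58 or more, the 2 with the smallest adjusted p in each class, chain pairs and some genes chosen after their values were seen (Col2a1, Col4a5, Plod2, Itga1, Lama5, Nid2). Up to 5 genes per partner list were named by smallest adjusted p. Plod3, Bgn, Sparc, Fn1, Lama4, Lamc1 and Pxdn were named after their values were seen. Lists not summarised above were the chondrocyte and osteoblast markers. Of 6 chondrocyte markers tested 1 was lower (16.7%, near the 17.4% of all genes). Of 6 osteoblast markers tested 2 were lower and 2 higher (33.3% each, against 17.4% and 21.3% of all genes).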

Additional observations from a re-analysis of the deposited data

How the results depend on the processing

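The 11 collagen genes that fell numbered 11 or 12 under all 15 alternative settings. The 3 that rose numbered 1 to 4 (1 to 3 when 1 array was left out, with 1 left without control replicate 1). Within classes, leaving out an array gave 1 to 2 higher network genes and 0 to 1 higher beaded genes, and centring the arrays gave 0 higher beaded genes. Averaging probe sets gave 1 lower FACIT gene (Col14a1) and 1 higher gene among the other collagens (Col15a1), and the stricter filter gave 1 higher gene there as well (Col18a1). Over all collagen genes, 585 of 600 single comparisons with an alternative kept their side of the threshold, 10 gained and 5 lost it, and none reversed. Over all genes, the counts ran from 2075 to 3601 lower and from 2669 to 3787 higher. Deviations of same-numbered arrays correlated at 0.08, 0.10 and 0.39, and those of differently numbered arrays at -0.37 to 0.31. With 3 arrays per line these values do not settle whether replicate numbers pair the arrays, and the main comparison left them unpaired. The replicate block gave 12 lower and 3 higher collagen genes. Over all genes it gave 3137 lower and 3787 higher, against 2932 and 3586 in the main comparison. Not every array correlated best with its own number. The size of some differences varied with probe set brightness, for example in Col1a1, Col1a2 and Col2a1, and the cause was not tested.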
